A study of Mus musculus with 4 samples.

Results

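The cells described here are aortic endothelial-lineage cells in which at least 3 of the 5 genes Ahsg, G0s2, Aldh3a1, Bace2 and Mal had a transcript count. They numbered 96 of 1973 kept aortic cells, and 3256 cells were kept in all 4 libraries of the study. A kept cell had at least 500 unique molecular identifiers (UMIs, each standing for 1 captured transcript) and at most 15% of them from mitochondrial genes. Cells with 3 or more of 6 remodelling genes (Col8a1, Selp, Dkk2, Tubb3, Timp1, Col18a1) or 2 or more of 4 lymphatic genes (Ccl21a, Mmrn1, Lyve1, Reln) were left out of the set. Those criteria removed 3 cells from one aortic library and 5 from the other. The cells were thus selected on the UMI counts of these 15 genes, so their levels below are a description and carry no test.

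The study asked how loss of the pluripotency factor Oct4 (gene Pou5f1) in endothelial cells alters those cells in atherosclerosis-prone mice. All animals were female, Apoe-deficient, on a C57/B6J background, and carried a Cdh5-driven endothelial lineage tracer that switches on eYFP. They ate Western diet for 5 weeks. The WT group (EC-Oct4+/+) pooled 2 mice and the KO group (EC-Oct4Δ/Δ) pooled 3 mice. Whole aortas (arch, thoracic and abdominal) and left lung lobes were digested with actinomycin D at 1 µg/mL, a transcription blocker. The eYFP+ cells were sorted against a gate set with littermates lacking Cdh5-driven labelling, and each tissue and genotype gave 1 droplet library. With 1 library of pooled mice per group there is no replicate check, so no p-value is given. Intervals in brackets are 95% intervals that cover counting error only, not the spread between mice. They are exact, except those on differences of log2 ratios, which are normal approximations on log counts. Cells of 1 library are not independent replicates of a genotype.

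The 5 selecting genes have different roles. Ahsg encodes fetuin-A, a plasma glycoprotein made mainly by liver that keeps calcium phosphate from precipitating. G0s2 encodes an inhibitor of adipose triglyceride lipase. Aldh3a1 encodes an enzyme that oxidises aldehydes, including those from lipid peroxidation. Bace2 encodes a membrane aspartyl protease related to beta-secretase, and Mal encodes a proteolipid of membrane rafts and apical transport vesicles. The aortic endothelium is a single cell layer that senses blood flow, and its cells differ by position along the vessel and by local flow.

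The genes lie on 4 chromosomes of the mouse build mm10. Ahsg spans chr16:22891277-22899449, Bace2 chr16:97356742-97442936, G0s2 chr1:193272161-193273217, Aldh3a1 chr11:61207537-61218421 and Mal chr2:127633226-127656695. These gene spans are those of the GENCODE annotation. Start sequences of 3 of the 5 matched by symbol in RefSeq (GRCm38.p6), and those of Ahsg and G0s2 are printed to show how unlike they are. Shown with them is the stretch between Col4a4 and Col4a3, genes with among the highest ratios of selected to other cells in both libraries, transcribed away from each other. Each is written 5′ to 3′ with no exon bases. For Ahsg it is the 120 bases before the RefSeq start, inside its wider GENCODE span (chr16:22891895-22892014, plus strand). For G0s2 it is 91 of the 120 bases before the RefSeq start (chr1:193273218-193273308, minus strand). The 29 bases next to that start were left out because of an annotated exon. The third is the 71 bases between Col4a4 and Col4a3 (chr1:82586850-82586920, on the strand of Col4a4). Capitals mark a match to GCGTG on either strand, the core of the site bound by the aryl hydrocarbon receptor.
Ahsg: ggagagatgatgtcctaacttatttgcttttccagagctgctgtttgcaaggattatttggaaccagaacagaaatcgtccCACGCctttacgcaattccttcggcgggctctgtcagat
G0s2: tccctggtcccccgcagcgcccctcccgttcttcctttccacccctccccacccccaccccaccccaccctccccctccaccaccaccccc
Col4a4: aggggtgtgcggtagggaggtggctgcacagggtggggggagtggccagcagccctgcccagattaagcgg
The TATA box (TATAAA), the GC box (GGGCGG), the CCAAT box and GCGTG were searched on both strands, and a GCGTG match in the Ahsg stretch was the only match in these 3 windows. Of 32851 RefSeq start windows of 120 bases, 17.8% held GCGTG, so such a match is not rare. The G0s2 stretch consists mostly of C and T, and the stretch between the collagen genes is rich in G.

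Selected cells made up 13 of 404 kept WT aortic cells, a share of 3.22% (1.72 to 5.44). In the KO aorta they were 83 of 1569 cells, or 5.29% (4.24 to 6.52). The intervals overlap. No lung cell met the rule: 0 of 775 in WT and 0 of 508 in KO, which allows shares of up to 0.387% and 0.591% (3 cells of the total). A rule that counts detected genes favours deeply sequenced cells. The median selected cell held 3983 UMIs against 1996 in the other WT cells, and 3159 against 2272 in KO. When each cell was thinned to 1500 UMIs, 5 of 254 WT cells (1.97%) and 26 of 1178 KO cells (2.21%) still met the rule, where the same cells gave 13 (5.12%) and 80 (6.79%) before thinning. Just outside the threshold stood 43 WT and 172 KO cells with 2 of the 5 genes, and no cell held all 5.

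The 2 aortic libraries held 989757 (WT) and 4418832 (KO) UMIs in kept cells, of which the selected cells contributed 56271 and 301660. Median mitochondrial shares were lower in selected than in other cells, at 3.11% against 4.42% in WT and 3.25% against 4.0% in KO. Doublet calling marked 4 cells in each aortic library, none of them a selected cell. The aortic libraries shared 2 barcodes, also outside the set.

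Bace2 was the most frequent of the selecting genes, with a UMI in 12 of 13 WT and 78 of 83 KO selected cells. Aldh3a1 followed with 9 and 61 cells, and Mal with 9 and 53. Ahsg was detected in 7 WT and 44 KO cells, and G0s2 in 4 and 38. Summed over the selected KO cells, Ahsg stood at 580 CPM (the usual scaling of a gene's UMIs to the total UMIs of the same cells) against 47.9 in the other aortic cells, and in WT at 284 against 39.6. G0s2 stood at 285 against 20.7 CPM in KO and 124 against 23.6 in WT. These differences follow from the rule. Outside the aorta the genes were rare: 3 of 775 WT and 0 of 508 KO lung cells held Ahsg, and 17 and 11 held Bace2. Aortic cells of the lymphatic criterion, at median depths of 1623.5 and 1880.5 UMIs, held Ahsg in 1 of 38 and 3 of 140 cells, and G0s2 in 4 and 11.

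The label Ahsg, G0s2 and Aldh3a1 described a minority of the set. Those 3 genes were found together in 1 WT and 10 KO cells. The commonest combination lacked Ahsg and G0s2: Aldh3a1 with Bace2 and Mal in 4 WT and 24 KO cells. The set is therefore called by its rule. For each gene in turn, the cells with at least 3 of the other 4 genes were read for the gene left out. The 5 genes were proposed from these data, so the shares describe the set and support nothing. Among such KO cells Ahsg was detected in 20 of 59 (33.9%) against 8.54% of the remaining cells, and G0s2 in 21 of 66 (31.8%) against 4.66%. For Aldh3a1 the count was 18 of 40 (45.0%) against 9.68%, for Bace2 25 of 30 (83.3%) against 32.7%, and for Mal 16 of 46 (34.8%) against 11.1%. At 1500 UMIs per cell the KO counts were 3 of 13 (23.1%) for Ahsg, 4 of 13 (30.8%) for G0s2, 4 of 17 (23.5%) for Aldh3a1, 5 of 9 (55.6%) for Bace2 and 4 of 15 (26.7%) for Mal, against 7.30%, 4.46%, 5.86%, 24.9% and 7.31%. In WT only 3 to 11 cells could be used per gene.

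All 8 pan-endothelial markers were detected in the selected cells, at a summed 7517 CPM in WT and 8407 in KO selected cells, against 7566 and 7239 in the others. Pecam1, an adhesion molecule of endothelial junctions, stood at 3785 against 2857 CPM in WT and 3239 against 2624 in KO. Cdh5, the endothelial cadherin, stood at 480 against 502 and at 424 against 487. Single markers went both ways: of the 8, 2 were above and 6 below the others in WT, and 4 above and 4 below in KO. In both libraries 1 was above and 3 were below. Cldn5, a tight-junction protein, stood at 586 against 1508 CPM in WT. Emcn, the sialomucin endomucin, stood at 1353 against 510 in KO but had a log2 ratio of -0.06 in WT. Pou5f1 had 0 UMIs in the selected cells of both libraries, so the deletion could not be read from this gene. Markers of other cell types were read next. Of 19 hepatocyte genes, 17 were at 0 in the selected cells of each library, Alb, Apoa1 and Ttr among them. Only Serpina1b and Trf were detected there, and the list summed to 88.9 against 85.7 CPM in WT and 186 against 116 in KO. Of 8 epithelial genes, only Krt18 was detected in selected cells of each library. That list summed to 320 against 147 CPM in WT and 176 against 122 in KO. All 8 adipocyte and all 6 mesothelial genes were at 0. Of 8 genes of Schwann cells and oligodendrocytes, glial cells that also make Mal, 3 (Pmp22, Cnp and S100b) were detected in each library. The list summed to 142 against 87.8 CPM in WT and 126 against 145 in KO, with Mbp, Mog and Sox10 at 0. Smooth muscle genes summed to 586 CPM in selected against 1438 in other WT cells and 275 against 2026 in KO. Haemoglobin and Alas2 transcripts summed to 0 against 15761 CPM in WT and 49.7 against 1859.5 in KO.

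The fibroblast list, like the hepatocyte and epithelial lists, stood above the other cells as a sum in both libraries. Its 9 genes summed to 1048 against 641 CPM in WT and 2980 against 1451 in KO. They took between 0 and 1.85% of a selected KO cell's UMIs. Of the 3 with enough counts to compare, 2 were above the other cells in WT and 1 in KO, the rest below. Their median log2 ratios were 1.12 in WT and -0.06 in KO. In KO, Dcn, the proteoglycan decorin, made up 2228 of those 2980 CPM. Pdgfra and Dpt, which define fibroblasts, were at 0 in the selected cells of both libraries, Col1a1 was at 0 in WT and Col3a1 at 0 in KO. Whether RNA of such cells contributed to the Dcn and Lum values below was not tested.

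**Figure D1:**
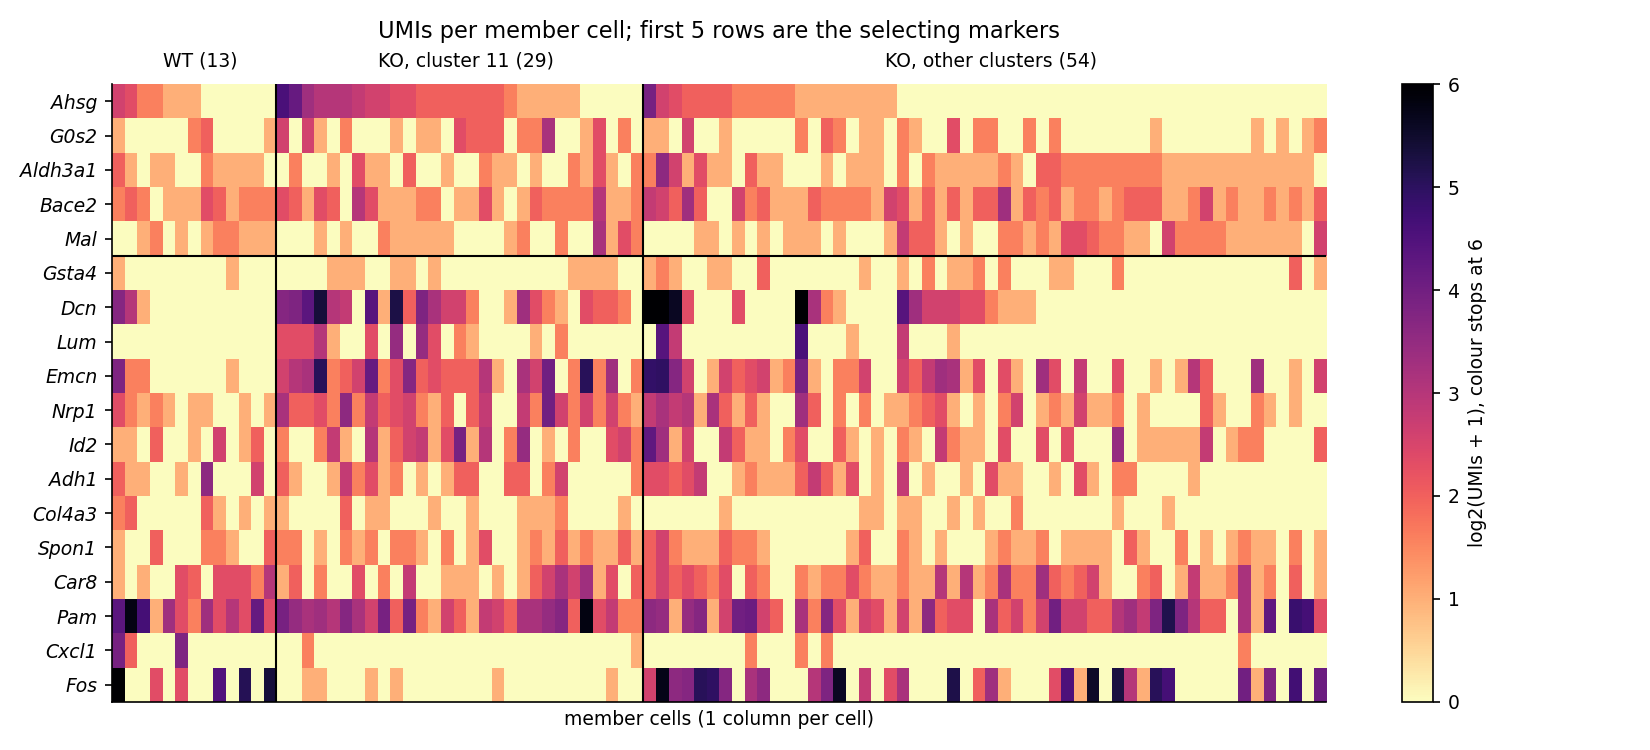
UMIs of the selecting genes and of other genes (rows) in each of the 96 selected cells, named members in the plots (columns, ordered as 13 WT cells, 29 KO cells of the cluster that held most of them and 54 KO cells of other clusters), colour scaled by the UMI count. Bace2 is detected in nearly every column, while Ahsg and Dcn are patchy, with Dcn in 24 of the 29 cells of that KO cluster.

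The cells did not form 1 cluster. When all aortic cells were clustered, the selected KO cells fell mainly in 3 clusters. Of the 83, 29 were in a cluster led by G0s2, Ahsg and Rps6ka2, 24 in one led by Serpina1b and 22 in one led by Cxcl2, Sox8 and Fos. The 13 WT cells were in the Cxcl2 cluster (6), the one led by Thbs1 and Nkx2-3 (4) and the Serpina1b cluster (3). The G0s2-Ahsg cluster held 74 KO and 3 WT cells, none of those 3 selected. With 1 library per genotype, a cluster mostly of 1 library may be that library. Clustered without the 15 genes of the rule, 41 KO and 3 WT selected cells lay in 1 cluster led by Pxylp1, Hand2 and Rps6ka2.

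Among KO selected cells, those of the G0s2-Ahsg cluster and those of other clusters differed in several genes. Such genes include ones that define the cluster and describe it only. Ahsg stood at 1240 CPM in the 29 cells and 261 in the other 54, Nrp1 at 1128 and 502, Emcn at 1992 and 1043, and Thbs1, a matrix glycoprotein, at 701 and 73.8. Fos, an immediate early transcription factor, went the other way with 61.0 and 2720 CPM. It was uneven within the 54: each cell of the Cxcl2-Sox8-Fos cluster held at least 6 Fos UMIs. No cell of the Serpina1b cluster held more than 7, and most held none, so low Fos was not particular to the G0s2-Ahsg cluster. Dcn had a UMI in 24 of the 29 cells (82.8%) and 20 of the 54 (37.0%), at 2236 and 2223 CPM. Outside that cluster 381 of its 452 UMIs lay in 5 cells of a cluster led by Ccnb2, Tubb3 and Col8a1, 189 of them in 1 cell, and without those 5 the level was 415 CPM. Median depths were 3022 and 3361.5 UMIs. The set thus joined cells with almost no Fos to cells with much of it.

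Ahsg divided the KO set in another way. The 44 KO cells with an Ahsg UMI held Dcn at 3835 CPM and Lum, the proteoglycan lumican, at 661, against 478 and 48.5 in the 39 cells without. Without the cells of the Tubb3-Col8a1 cluster the Dcn levels were 1754 and 457 CPM. Over all kept KO aortic cells, 45.0% of the Ahsg-positive cells held Dcn against 14.7% of the Ahsg-negative ones, at median depths of 3020 and 2272.5 UMIs. Gsta4, a glutathione transferase for lipid peroxidation products, was found in 12.1% and 2.46% of them, and Mal in 15.4% and 11.4%. Of Aldh3a1-positive and negative KO cells, Mal was found in 29.5% and 9.69%, Gsta4 in 18.7% and 1.57%, Dcn in 35.5% and 15.5%, and Lum in 13.3% and 4.35%. The WT shares by Aldh3a1 were 41.2% and 7.84% for Mal, and 17.6% and 0.541% for Gsta4. The Aldh3a1-positive cells were the deeper ones, with medians of 3510 against 2243 UMIs in KO and 3692 against 1950 in WT.

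Against the other aortic cells, 2547 genes other than those of the rule had enough counts to compare (in both libraries, at least 30 UMIs and an average of at least 50 CPM over selected and other cells). In WT, 134 genes (5.26%) stood above the others by 2-fold or more in selected cells, and 240 (9.42%) below. In KO, 21 (0.824%) were higher and 66 (2.59%) lower. Counts in WT rest on 13 cells and are mostly small. Past 2-fold in both libraries stood 10 genes higher (0.393%) and 42 lower (1.65%). Scaling by TMM, which corrects for a few genes taking many counts, shifted WT ratios by -0.23 and KO ratios by -0.06 on the log2 scale and gave 5 higher and 55 lower. The median gene differed by 0.05 (WT) and 0.02 (KO) on the log2 scale. The genes that chose the cells were left out of the comparison, but the same cells' counts served for both, so the ratios are descriptions.

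Of the 10 genes past 2-fold higher in both libraries, Col4a3 and Col4a4 had the largest ratios when each gene's smaller ratio was taken. Col4a3 and Col4a4 encode type IV collagen chains that assemble together into a specialised network, best known in kidney and inner ear. Col4a3 stood at 195 against 55.7 CPM in WT (ratio 3.51, 1.65 to 6.81) and at 82.9 against 23.1 in KO (3.59, 2.21 to 5.63). Col4a4 stood at 160 against 52.5 in WT (3.05, 1.32 to 6.27) and at 89.5 against 30.1 in KO (2.97, 1.88 to 4.53). In each library, both genes were higher and no single selected cell held more than 27.3% of their UMIs. Both rested on few counts. In selected cells with 3 and 4 of the selecting genes, Col4a3 had 6 and 5 UMIs in WT and 18 and 7 in KO. Col4a4 had 6 and 3 in WT and 18 and 9 in KO. A further comparison used only the other cells of the clusters holding at least 10% selected cells. These were the clusters led by Cxcl2 and by G0s2, with 57 WT and 211 KO other cells. All selected cells were kept, also those of other clusters, such as 24 KO cells of the Serpina1b cluster. The ratios were then 1.97 in WT and 2.29 in KO for Col4a3, and 1.47 and 2.16 for Col4a4. Col4a2, a chain of the common basement membrane network, went the other way, at 17.8 against 109 CPM in WT (1 UMI, ratio 0.163, 0.00408 to 0.927) and 33.2 against 88.2 in KO. Spon1, the matrix protein F-spondin, stood at 213 against 72.9 CPM in WT (2.93, 1.44 to 5.45) and 308 against 123 in KO (2.51, 1.99 to 3.13), and against those clusters its ratios were 1.59 and 1.38. Bgn, the proteoglycan biglycan, stood at 4425 against 2162 and 2914 against 2009 CPM.

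Adh1, Aldh2 and Mgst3, all encoding enzymes, were also higher in both libraries. Adh1, an alcohol dehydrogenase that acts on retinol, stood at 391 against 171 CPM in WT (2.28, 1.39 to 3.57) and 375 against 133 in KO (2.81, 2.27 to 3.45). One WT cell held 50% of its UMIs, and without the highest cell of each side the WT ratio was 1.19. Aldh2, the mitochondrial aldehyde dehydrogenase, stood at 817 against 478 and at 646 against 447. It was the only one of 18 listed aldehyde dehydrogenases with enough counts outside the rule. Mgst3, a microsomal glutathione transferase, stood at 604 against 342 and at 560 against 317 CPM.

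Cytl1, Cpe, Pam and Sfrp1 had smaller ratios but rested on more counts. Cytl1, a small secreted protein, was among the most abundant transcripts, at 20703 against 14165 CPM in WT (1.46, 1.38 to 1.55) and 20765 against 11330 in KO (1.83, 1.78 to 1.88). Cpe, a carboxypeptidase that trims peptide hormones, stood at 3074 against 1847 (1.66, 1.42 to 1.95) and 4094 against 2179 (1.88, 1.77 to 1.99). Pam, which amidates such peptides, stood at 2808 against 1517 (1.85, 1.56 to 2.18) and 2075 against 1153 (1.80, 1.65 to 1.96). Sfrp1, a secreted Wnt antagonist, stood at 782 against 394 (1.98, 1.42 to 2.72) and 855 against 506 (1.69, 1.48 to 1.92). Ptgs1, the constitutive cyclooxygenase, stood at 462 against 229 and 358 against 213. These 5 genes, Ptgs1 included, were higher in both libraries, and Cytl1, Cpe and Pam were detected in 13 of 13 WT cells.

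Other genes were past 2-fold in both libraries, most of them, like Col4a3 and Col4a4, on few counts. Atp1b1, a sodium pump subunit, stood at 142 against 65.4 CPM in WT, where its interval spanned 1 (0.899 to 4.56), and 182 against 74.8 in KO (2.44, 1.79 to 3.26). Ncam1, a neural cell adhesion molecule, was similar, at 142 against 61.1 (0.959 to 4.90) and 179 against 85.7 (2.09, 1.54 to 2.79). The homeobox genes Dlx5 and Msx1 had 5 and 4 WT UMIs. Their KO levels were 72.9 against 28.4 and 89.5 against 44.7 CPM. The gene 1500015O10Rik stood at 693 against 229 CPM in WT and 331 against 163 in KO, with 48.7% of the WT UMIs in 1 cell. It lay on the other side at 1500 UMIs per cell, where its KO log2 ratio was -0.98.

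**Figure D2:**
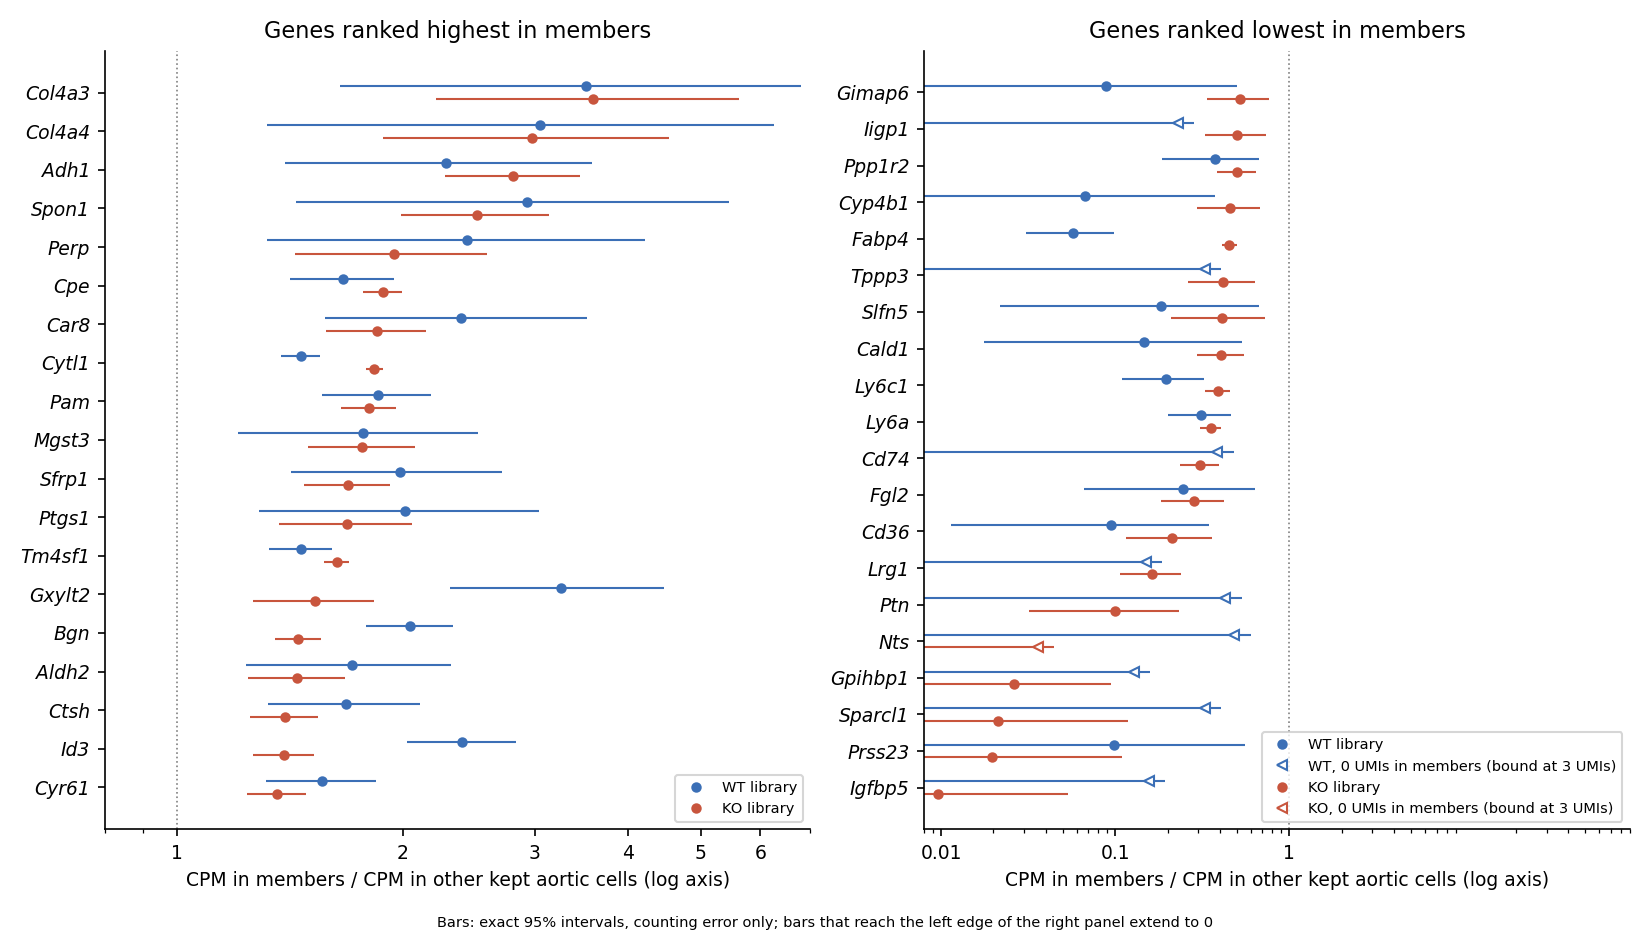
Ratio of CPM in selected to other aortic cells (log axis) for genes with the highest and with the lowest ratios in both libraries, WT and KO side by side, with exact 95% intervals; triangles mark genes at 0 UMIs, drawn at the bound that 3 UMIs give. WT intervals, from 13 cells, are the wider ones, and the collagen genes Col4a3 and Col4a4 lead the higher group.

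Among the lower genes were many of the capillary list. Of its 6 measured genes, 4 were at least 2-fold lower in both libraries, where 1.65% of all genes were, and their median log2 ratios were -2.38 in WT and -1.66 in KO against 0.05 and 0.02 for all genes. Gpihbp1, which anchors lipoprotein lipase on capillaries, had 0 UMIs in WT selected cells against 414 CPM, at least 7.76-fold lower. In KO it stood at 6.63 against 254 CPM (2 UMIs, ratio 0.0261, 0.00316 to 0.0945). Cd36, a fatty acid transporter, stood at 35.5 against 374 CPM in WT (2 UMIs, ratio 0.0951, 0.0115 to 0.346) and 46.4 against 219 in KO, 4.71-fold lower (2.79 to 8.65). Fabp4, a fatty acid carrier, stood at 231 against 4010 in WT, with 92.3% of its UMIs in 1 cell, and 1303 against 2882 in KO. The KO direction of both depended on the cells they were set against: compared with other cells of the clusters holding at least 10% selected cells, the log2 ratio was 1.08 for Cd36 and 1.21 for Fabp4. Of 12 measured genes of fatty acid uptake and oxidation, 4 were at least 2-fold lower in both libraries, against 1.65% of all 2547 genes, and none higher; Acsl5 and Fabp5 ranked highest of them.

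Igfbp5, a growth factor binding protein, had 0 UMIs against 341 CPM in WT, at least 6.39-fold lower, and 1 UMI in KO, at 3.31 against 347 CPM (ratio 0.00956, 0.000242 to 0.0533). Part of such values came from lymphatic cells among the others: without them the other cells held Igfbp5 at 159 and 141 CPM. Nts, neurotensin, was at 0 in both libraries against 111 and 276 CPM, of which 15.2 and 141 remained without lymphatic cells. Lrg1, a glycoprotein of venous and inflamed endothelium, had 0 UMIs against 355 CPM in WT, at least 6.65-fold lower, and stood at 89.5 against 550 in KO, 6.14-fold lower (4.21 to 9.34), but at a log2 ratio of 0.86 against the clusters with at least 10% selected cells. Cd74, which escorts MHC class II proteins, had 0 UMIs against 138 CPM in WT, at least 2.59-fold lower, and stood at 206 against 666 in KO. Ly6a and Ly6c1, surface antigens of many endothelial cells, stood at 444 against 1433 and 267 against 1366 CPM in WT, and at 673 against 1898 and 474 against 1220 in KO. The 3′ end of Ly6c1 shares 31.8% of its 50-base words with other genes, so its counts are uncertain.

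The remaining lists were read by their counts and medians. Of all 2547 genes, 32.6% were above the other cells in both libraries by any size and 26.9% below in both. Of 16 measured arterial genes, 9 were above the other cells in both libraries and 3 below in both, with medians of 0.39 in WT and 0.22 in KO. By the average of the WT and KO log2 ratios, Nrp1 and Eln ranked highest, Sox17 and Fbln5 lowest. The rank of Eln came from WT alone, with log2 ratios of 1.58 in WT and -0.15 in KO. Without the highest cell of each side its WT value was 0.12. Of 14 MHC class I and peptide-loading genes, none was above in both and 9 were below, with medians of -0.30 and -0.11. H2-Q7, for example, stood at 71.1 against 126 CPM in WT and 212 against 363 in KO. Of 17 matrix genes, 1 (Dcn) was at least 2-fold higher in both libraries and 2 (Sparcl1, Col4a2) were lower. Of all genes 0.393% were higher and 1.65% lower by as much. The matrix medians were 0.38 in WT and -0.20 in KO, and differ in sign. Of 10 heat shock genes, 6 were below in both. Of 9 vasoactive genes, 6 were above in both and none below in both, with Ptgs1 and Calcrl highest. Of 11 laminar-flow genes, 4 were above in both and 5 below. Klf2, the flow-induced transcription factor, stood at 1528 against 1717 and 1999 against 2065 CPM, and Klf4 at 338 against 475 and 378 against 538. Cldn5 was lower, at 586 against 1508 and 806 against 1189 CPM.

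Immediate early genes differed between libraries. Of 16 measured, 14 were above the others in WT and 7 in KO. Their medians were 0.60 and -0.27, against 0.05 and 0.02 for all genes. In both libraries 6 were above and 1 below, where 32.6% and 26.9% of all genes were. Fos stood at 3003 against 1687 CPM in WT and 1853 against 1567 in KO; Ier2 stood at 871 against 438 and 524 against 444. Actinomycin D, which blocks new transcription, was in the digestion buffers of both genotypes. The WT selected cells lay partly in the Cxcl2-Fos cluster, and those of KO partly in the G0s2-Ahsg cluster with little Fos; the part of this in the difference was not tested.

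Gsta4, Dcn, Lum, Emcn, Nrp1 and Id2 had high ratios in KO. Gsta4 stood at 123 against 7.04 CPM in KO (17.4, 10.4 to 29.4), the highest KO ratio of those named here, and at 35.5 against 7.50 in WT (2 UMIs, ratio 4.74, 0.480 to 24.9). Its WT counts were under the minimum set for the genes compared above. Against other cells of the clusters with at least 10% selected cells its ratios were 6.32 in KO and 1.20 in WT. Dcn stood at 2228 against 711 CPM in KO (3.13, 2.88 to 3.41) and 355 against 140 in WT (2.53, 1.5 to 4.07); 28.1% of the KO UMIs lay in 1 cell, and without the highest cell of each side the ratio was 2.39. Of its 672 KO UMIs, 381 lay in the 5 cells of the Tubb3-Col8a1 cluster, and without that cluster on either side it stood at 1080 against 484 CPM (ratio 2.23). On the WT side 60.0% of the 20 UMIs lay in 1 cell. Lum stood at 368 against 72.4 CPM in KO (5.08, 4.05 to 6.34), while WT had 0 UMIs in the selected cells and 2 in the others. Emcn stood at 1353 against 510 CPM in KO (2.65, 2.38 to 2.95) and 320 against 334 in WT. Nrp1, a co-receptor of VEGF and semaphorins, stood at 706 against 243 in KO (2.91, 2.5 to 3.38) and 249 against 148 in WT (1.68, 0.897 to 2.92). Id2, an inhibitor of bHLH factors, stood at 646 against 241 in KO (2.68, 2.28 to 3.12) and 267 against 255 in WT. The WT interval spanned the KO ratio for Gsta4, Dcn and Nrp1, and lay below it for Emcn and Id2.

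Levels were also read by the number of selecting genes a cell held, leaving out cells that met the remodelling or lymphatic criterion. In KO this left 649, 414, 151, 58 and 25 cells with 0, 1, 2, 3 and 4 of the genes. In KO, Spon1 stood at 103, 117, 221, 296 and 335 CPM in cells with 0, 1, 2, 3 and 4 of the 5 genes, and Gsta4 at 2.12, 9.77, 23, 115 and 141. Adh1 stood at 102, 186, 265, 344 and 443. In KO, cells with 2 genes thus sat between the cells with none and the selected ones for Spon1, Gsta4 and Adh1. Dcn stood at 464, 576, 658, 951 and 5114 CPM, but 3 cells of the Tubb3-Col8a1 cluster held 328 of the 473 UMIs of the 25 cells with 4 genes, which stood at 2095 CPM without them. Fabp4 stood at 5395, 2902, 696, 1085 and 1795 CPM, highest where no gene was held and lowest with 2. Median KO depths ran from 1793 UMIs with 0 genes to 3555.5 with 3 and 3020 with 4, and the part of depth in these gradients was not tested. The WT order was less regular, with 11 and 2 cells at 3 and 4 genes. From 0 to 4 genes, Spon1 stood at 48.0, 105, 129, 227 and 181 CPM in WT, and Gsta4 at 0, 4.57, 35.9, 25.2 and 60.2. WT Adh1 stood at 166, 219, 237, 202 and 843, and WT Dcn at 250, 82.3, 43.0, 202 and 722.

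**Figure D3:**
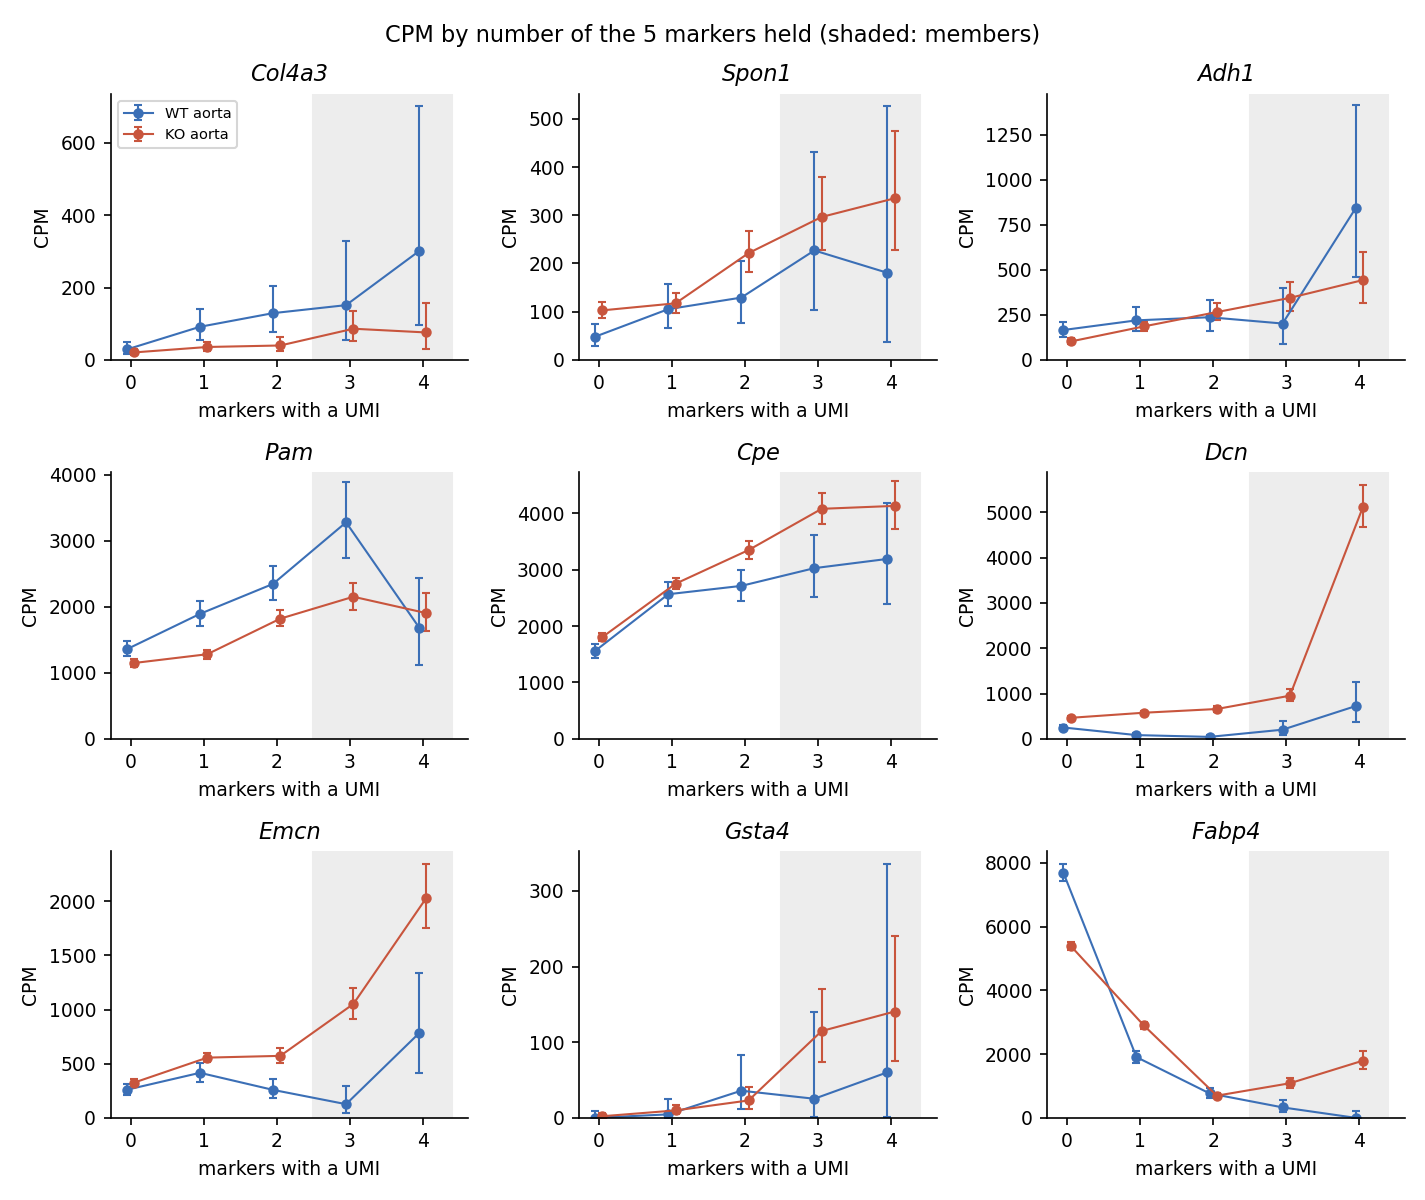
CPM with exact 95% intervals of 9 genes in aortic cells that held 0 to 4 of the 5 selecting genes, WT and KO in separate lines, with the selected cells shaded. Cells that met the remodelling or lymphatic criterion are left out. Spon1, Adh1 and Gsta4 climb from 0 to 4 genes in KO, and Fabp4 is highest at 0.

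Other aortic groups, drawn outside the selected, remodelling and lymphatic cells, were set beside them. Cells with Stmn2 and Sema3g (12 WT, 51 KO) held Ly6c1 at 3453 and 5152 CPM and Cldn5 at 2727 and 2947, above the selected cells, and Cpe at 836 and 661, below them. Cells with Klk10 and Isl1 (19 WT, 51 KO) held Bace2 in 42.1% and 51.0% of cells and Ahsg in 5.26% and 11.8%. Selected cells exceeded them in Edn1, encoding endothelin, at 889 against 348 CPM in WT and 613 against 173 in KO. Cells with at least 2 of Thbs1, Cyp1b1 and Frzb (49 WT, 169 KO) held G0s2 in 8.16% and 8.88% and Ahsg in 16.3% and 14.2% of cells. Against those, selected cells were higher in Ctla2a, at 782 against 362 and 1767 against 1046 CPM, and lower in Nupr1, a stress-induced nuclear protein, at 622 against 1015 and 504 against 998.

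Within the selected cells KO was set beside WT over 1839 genes. KO levels exceeded WT levels by 2-fold or more for 186 genes (10.1%), and 73 (3.97%) were below by as much; TMM scaling shifted the ratios by 0.19 on the log2 scale and gave 282 and 42. Over the other aortic cells, 1832 of these genes gave 8 higher (0.437%) and 6 lower (0.328%). The share past 2-fold was larger in the selected cells, whose WT arm holds 13 cells and 56271 UMIs. Median log2 differences were 0.06 in selected cells, and 66.8% of genes lay within 1.5-fold.

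Cxcl1, a neutrophil-attracting chemokine, stood at 533 CPM in WT and 36.5 in KO selected cells, 14.6-fold lower (7.12 to 32.3). In the other cells the KO to WT ratio was 1.12, and the log2 ratios of the 2 populations differed by -4.04 (-5.07 to -3.01). The WT value rested on 30 UMIs in 3 cells, 46.7% of them in 1. Thbs1 stood at 1333 and 278 CPM, 4.79-fold lower (3.46 to 6.61), with a ratio of 0.948 in other cells. Frzb, a secreted Wnt antagonist, stood at 427 and 99.4, 4.29-fold lower (2.40 to 7.59). The cluster led by Thbs1 and Nkx2-3, with Frzb also among its leading genes, held 4 of 13 WT and 2 of 83 KO selected cells. The part of this in the Thbs1 and Frzb ratios was not tested. Eln, elastin, stood at 2701 and 912, 2.96-fold lower (2.41 to 3.63), but 67.8% of the WT UMIs lay in 1 cell; without the highest cell of each side the log2 ratio was -0.06. The same removal left Cxcl1 at -3.25, Thbs1 at -1.50 and Frzb at -0.84, the last no longer past 2-fold. Adh7, a retinol-active alcohol dehydrogenase, stood at 729 and 212 CPM, 3.43-fold lower (2.26 to 5.16), with a ratio of 0.671 in other cells.

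Higher in KO stood Emcn at 320 and 1353 CPM, a ratio of 4.23 (2.64 to 7.21) against 1.52 in the other cells. Its log2 ratios differed by 1.47 (0.77 to 2.17), and 72.2% of the WT UMIs lay in 1 cell. Fabp4 stood at 231 and 1303, a ratio of 5.64 (3.26 to 10.7) against 0.719. Vcam1, a leukocyte adhesion molecule, stood at 1208 and 2629, a ratio of 2.18 (1.70 to 2.83) against 1.49. Igfbp4 stood at 53.3 and 328 (3 WT UMIs, ratio 6.16, 2.05 to 30.4) against 1.86. Cd74 had 0 UMIs in WT and stood at 206 CPM in KO, at least 3.86-fold higher, and its ratio in the other cells was 4.82. Dcn was 6.27-fold higher (4.03 to 10.3) in KO selected cells and 5.07-fold higher in KO others, and the log2 ratios differed by 0.31 (-0.38 to 1.00). Without the Tubb3-Col8a1 cluster the ratio in selected cells was 3.04. Of 15 immediate early genes none was 2-fold higher in KO and 6 were 2-fold lower, against 10.1% and 3.97% of all 1839 genes. Their medians were -0.94 in selected and -0.11 in other cells.

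**Figure D4:**
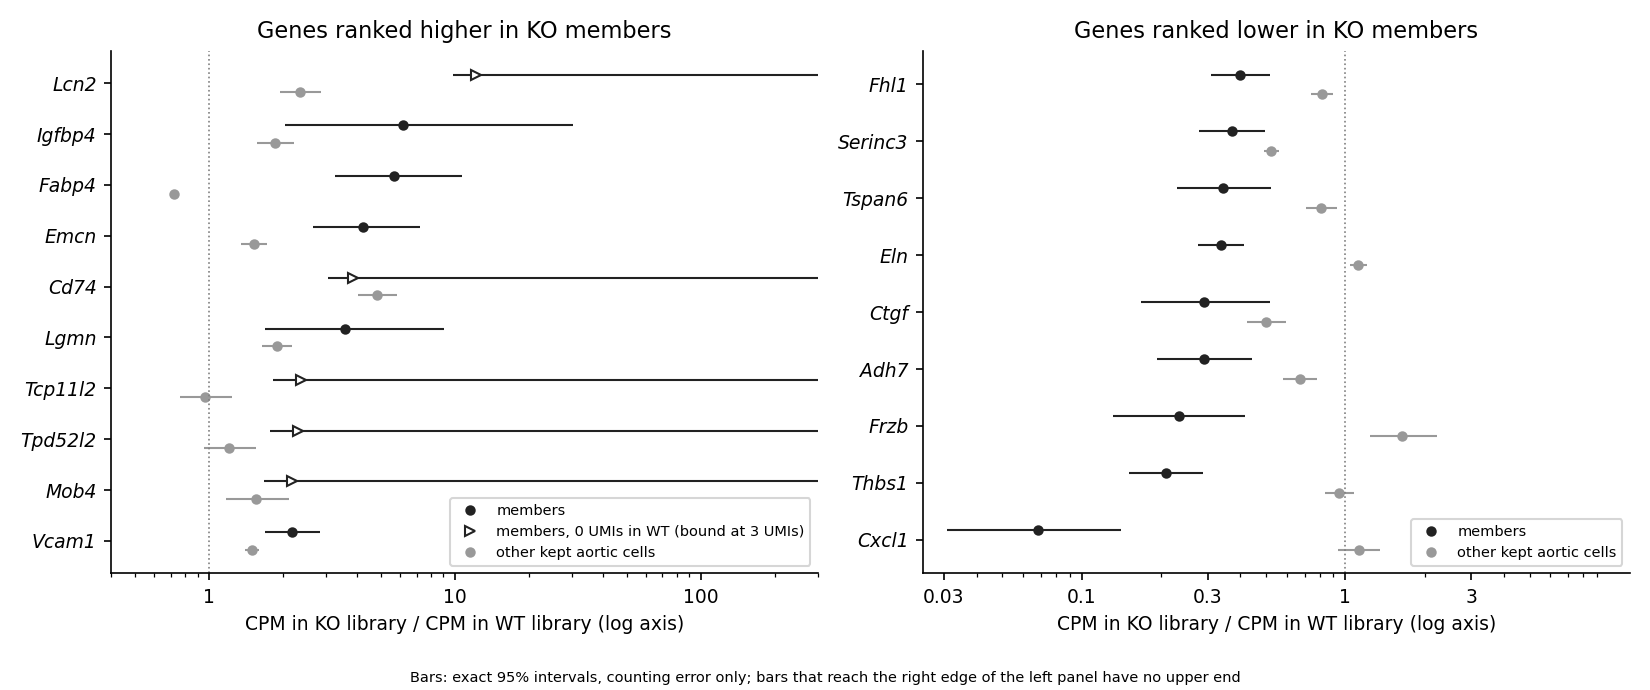
Ratio of KO to WT CPM (log axis) in selected and in other aortic cells for the genes ranked highest and lowest in KO selected cells, with exact 95% intervals and triangles at the 3-UMI bound where one side had 0 UMIs. Cxcl1, Thbs1 and Frzb sit well below 1 in selected cells and near or above 1 in the others, while Cd74 is above 1 in both.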

How the data were processed

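Sorted eYFP+ cells of 2 tissues and 2 genotypes gave 4 droplet libraries. The authors deposited unnormalized UMI counts per gene and barcode, for which the submitters' processing notes name Cell Ranger and the build mm10 but no version. From these deposited counts, rows of the same symbol were summed (36 per aortic library), cells were kept by the limits given above, and the selected cells were found by rule. Counts were summed over selected and other cells of each library and expressed as CPM; ratios have exact conditional intervals, shares exact Clopper-Pearson intervals and levels exact Poisson intervals. Differences of log2 ratios have normal intervals on log counts. A side at 0 UMIs was set to 3 UMIs, as a bound. PCR duplicates are removed by UMIs, but intervals cover counting error only. Cells were clustered with scanpy 1.11.5 and the Leiden method of igraph 0.11.9 (2000 variable genes, 30 components, 15 neighbours, resolution 1), and doublets were called with Scrublet. TMM factors came from edgeR 4.0.16. The ratio script was tested on simulated data. Members, gene lists and comparisons were chosen with earlier results of these data known. Genes set against other cells were named by the bound of the ratio's interval nearest to 1, taken in the weaker library. Those for KO against WT were named by the same bound. Of each list, 2 genes at each end were named, ranked by the average of their WT and KO log2 ratios. A few were added after their values were seen. A few genes that the rule named are not reported here.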

Additional observations from a re-analysis of the deposited data

Results flagged for a closer look

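Cxcl1 and Lcn2 lay on opposite sides of the other aortic cells in the WT and KO libraries. The difference between libraries was not tested, with 1 library per genotype. Cxcl1 had a log2 ratio of selected to other cells of 1.83 in WT (533 against 150.0 CPM, 30 UMIs in 3 cells) and -2.21 in KO (36.5 against 168 CPM, 11 UMIs in 6 cells). Lcn2, an iron-carrier binding protein of acute inflammation, had a log2 bound of -1.26 in WT (0 UMIs against 127 CPM) and a ratio of 1.13 in KO (653 against 298 CPM). One of the 7 KO selected cells with an Lcn2 UMI held 67.5% of its 197 UMIs, and without the highest cell of each side the KO log2 ratio was -0.15.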

How the results depend on the processing

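No paired analysis was possible because each genotype has 1 library per tissue. With 13 WT cells, single cells moved WT values, and depth limits detection of every selecting gene. No WT selected cell lay in the G0s2-Ahsg cluster, so KO against WT within that cluster gave no value. The cause of the changes below was not tested. Requiring 2 or 4 of the 5 genes gave shares of 13.6% and 0.495% in WT and 14.9% and 1.59% in KO, and thinning to 1500 UMIs gave 2.21% in KO. Genes higher in both libraries, 10, became 2 with 2 of 5 genes, 18 with 4 of 5, 3 without the highest cell of each gene and side, 6 at a mean of 100 CPM, 5 with TMM and 1 against other cells of clusters with at least 10% selected cells. Genes lower in both, 42, became 25 with 4 of 5, 12 when thinned, 81 at a mean of 20 CPM, 17 at 100 CPM and 8 against those clusters. Genes higher in KO selected cells, 186, became 70 with 2 of 5, 85 with 4 of 5, 25 when thinned, 369 without the highest cell, 87 at 100 CPM, 282 with TMM and 116 outside the G0s2-Ahsg cluster, an alternative chosen after seeing the data. Those lower in KO, 73, became 38 with 4 of 5, 15 when thinned, 15 without the highest cell, 42 with TMM and 43 outside that cluster. Single-gene log2 values turned against those clusters for 1500015O10Rik in KO (-0.055), Acta2 in WT (1.64), Cd36 in KO (1.08), Fabp4 in KO (1.21), Flt1 (0.52 in WT, 0.43 in KO), Ifi27l2a in WT (1.11), Lpl (0.62 in WT, 0.48 in KO), Lrg1 in KO (0.86), Plvap in WT (0.093), Ppp1r2 in WT (0.44), Slfn5 (0.52 in WT, 0.083 in KO) and Tppp3 in KO (0.088). They turned when thinned for 1500015O10Rik in KO (-0.98), Cald1 in WT (0.23), Flt1 in KO (0.27), Id3 in WT (-0.25), Ifi27l2a in WT (0.81), Lcn2 in KO (-0.014), Nos3 in WT (0.28) and Tgfb1 in WT (0.11). With 4 of 5 genes, which leaves 2 WT cells, they turned for Atp1b1 (-0.22), Car8 (-2.02), Ptgs1 (-0.43) and Tgfb1 (0.027) in WT, and with 2 of 5 for Dcn (-0.24), Myadm (0.26) and S100a4 (0.11) in WT and Lcn2 (-0.30) in KO. Without the highest cell Col1a2 in WT (-0.65) and Lcn2 in KO (-0.15) turned. Leaving out the Tubb3-Col8a1 cluster, also chosen after seeing the data, turned none of the 6 KO genes tried. Of 3884 values of 219 results set against the other cells, 3681 kept their direction, as did 311 of 311 of 20 results for KO against WT. Genes for KO against WT were named for ratio intervals lying furthest from 1, so a kept direction was likely beforehand.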
